A study of Rattus norvegicus with 12 samples.

Results

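The rapamycin-resistant line ELT3-245 was compared with its parental line ELT3 in the absence of drug. The comparison took the 3 ELT3-245 and the 3 ELT3 arrays treated with the solvent DMSO, which are 6 of the 12 arrays of the study, and used all 23188 probe sets. The parental ELT3 cells lack functional Tsc2 and were derived from a leiomyoma of the uterus of an Eker rat. ELT3-245 was established from the tumor of 1 ovariectomized CB17/SCID mouse, whose ELT3 xenograft was not responsive to rapamycin, so that it stands for 1 line from 1 tumor. Both groups carried the same Tsc2 defect, were cultured as triplicate plates in IIA medium with fetal bovine serum, and received DMSO for 24 hours. The remaining 6 arrays, 3 of each line after rapamycin, served as a repeat of the line comparison. Their values did not enter the DMSO differences, but all 12 arrays shared 1 estimate of the error. Nothing in the sources used here says that the triplicate plates were independent cultures, so the p-values cover the spread between these plates only.

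Tuberin, the product of Tsc2, acts with hamartin to restrain the small GTPase Rheb, which activates the kinase complex mTORC1. Cells without tuberin keep mTORC1 active, and rapamycin binds FKBP12 to inhibit it. Uterine leiomyomas are smooth muscle tumors known for abundant extracellular matrix, a meshwork of collagens, proteoglycans and matricellular proteins that stores growth factors and is remodelled by secreted proteases.

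Values are deposited log2 signals, so a difference of 1 is a 2-fold change in signal, and all differences are given as ELT3-245 minus ELT3. The array medians ranged from 6.73 to 6.75 for ELT3-245 and from 6.69 to 6.72 for ELT3. Arrays of the same line correlated at 0.99462 to 0.99589 across probe sets and arrays of different lines at 0.97234 to 0.97454. The first principal component held 78.0% of the variance and separated the lines. The highest signal was 18.56, and 304 probe sets exceeded 16 on at least 1 DMSO array, which lies above the range of a 16-bit scan, so fold changes hold for the deposited scale. The arrays came without detection calls, and signals near or below the array median may be background.

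Of the genes for tuberin, hamartin, mTOR and FKBP12 none was called different between the lines. Tsc2 gave 9.81, 9.76 and 9.16 on the ELT3-245 arrays against 9.46, 9.64 and 9.51 on the ELT3 arrays, a difference of 0.04 ± 0.19 (SE, limma adjusted p = 0.922). Where its probes lie relative to the Eker insertion was not given in the sources used here, so this signal does not check the allele. Tsc1 (-0.22, adjusted p = 0.183), Mtor (0.14, adjusted p = 0.563) and Fkbp1a, which encodes FKBP12 (-0.20, adjusted p = 0.367), were not called either. Desmin and smooth muscle actin, markers of the tissue of origin, were bright in both lines, with mean signals of 16.65 in ELT3-245 and 15.70 in ELT3 for Des and of 14.43 in ELT3-245 and 15.09 in ELT3 for Acta2. Des was called higher and Acta2 lower in ELT3-245. Myh11, the myosin heavy chain of mature smooth muscle, was low in both, at 4.86 in ELT3-245 and 4.67 in ELT3. Cnn1 (5.71 in ELT3-245 and 6.61 in ELT3) and Mylk (5.84 in ELT3-245 and 5.96 in ELT3) were dim too. Of 23 smooth muscle contractile genes 14 exceeded the array median in ELT3-245 and 14 in ELT3.

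A probe set was called different where limma's p, adjusted by Benjamini-Hochberg across the whole array, was under 0.05 and the signal showed at least a 1.5-fold difference in either direction. Of the 23188 probe sets, 3445 (14.9%) were called, 1693 (7.3%) higher and 1752 (7.56%) lower in ELT3-245. The median difference over all probe sets was 0.01. Calls of at least 4-fold numbered 327 higher and 265 lower, calls of at least 16-fold 76 higher and 61 lower, and calls of at least 64-fold 19 higher and 11 lower. The arrays of the lines did not overlap for 3400 of the 3445 called probe sets, against 36.8% of all probe sets. Among the 15037 genes with a symbol, 16.6% were called, 8.22% higher and 8.34% lower, and these shares are the background for the gene lists below.

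**Figure D1:**
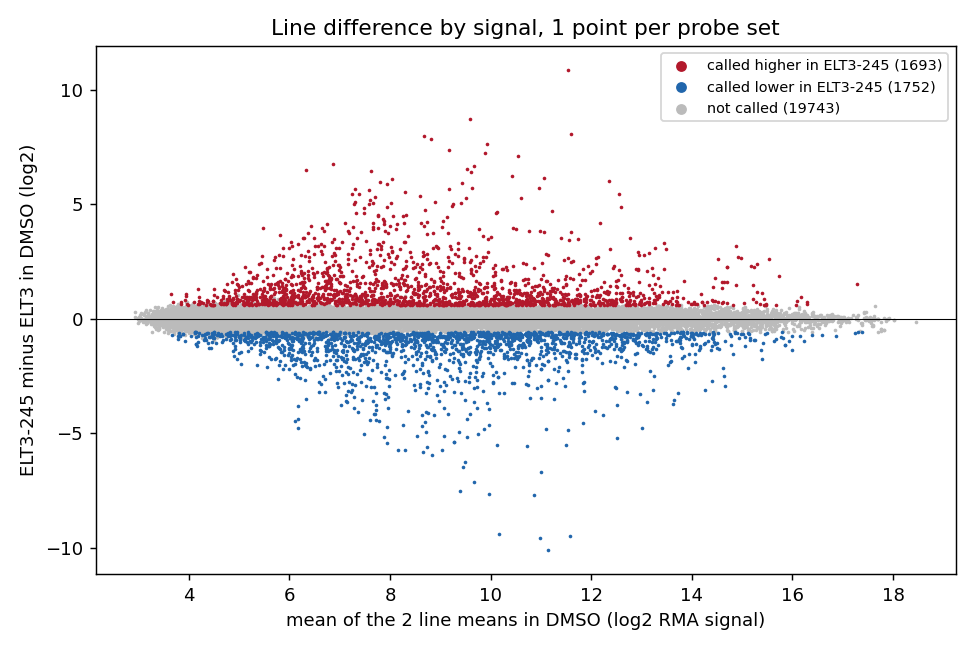
Difference between the lines in DMSO (ELT3-245 minus ELT3, log2) against the mean of both line means (log2 RMA signal), 1 point per probe set. The 1693 higher and 1752 lower calls lie on both sides of 0 at all signal levels.

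The largest increases in ELT3-245 were secreted matrix and signaling proteins that were dim in ELT3. Thbs2, which encodes the matricellular protein thrombospondin 2, had signals of 16.87, 17.07 and 16.95 in ELT3-245 against 5.96, 5.72 and 6.60 in ELT3, a difference of 10.87 ± 0.23 (SE, adjusted p = 1.9e-11). It stood at the 99.7th percentile of all probe sets in ELT3-245 and at the 44.4th in ELT3. Grem1, a secreted antagonist of bone morphogenetic proteins (BMPs), had 14.05, 14.00 and 13.83 in ELT3-245 against 5.4, 4.88 and 5.4 in ELT3 (difference 8.73 ± 0.27). Penk, the precursor of the enkephalin opioid peptides, had 15.50, 15.67 and 15.68 in ELT3-245 against 7.39, 8.23 and 7.06 in ELT3 (difference 8.05 ± 0.23). For each of these genes the lowest ELT3-245 array was far above the highest ELT3 array.

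The other leading increases spanned adhesion, transport and transcription. Tnn, a member of the tenascin family, was higher by 7.98, the serotonin transporter gene Slc6a4 by 7.64 and Gdf10, a ligand of the TGF-β superfamily, by 7.36. Kdr, the VEGF receptor best known from endothelium, was higher by 7.22. Osr1, a zinc finger transcription factor of the intermediate mesoderm, had 14.14, 14.21 and 13.96 in ELT3-245 against 6.64, 7.57 and 6.74 in ELT3. Csgalnact1, an enzyme that starts chondroitin sulfate chains, was at 10.27, 10.14 and 10.28 in ELT3-245 against 3.61, 3.51 and 3.34 in ELT3. Thbs4 (6.65), the adhesion gene Mpzl2 (6.54), Lum (6.46), Lrrc32, which holds latent TGF-β at the cell surface (6.41), the transcription factor gene Ebf1 (6.22) and the collagen-binding receptor gene Antxr1 (6.15) completed the 15 largest increases. Across these 15 genes the mean signals were 10.23 to 16.96 in ELT3-245 and 3.49 to 7.98 in ELT3.

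**Figure D2:**
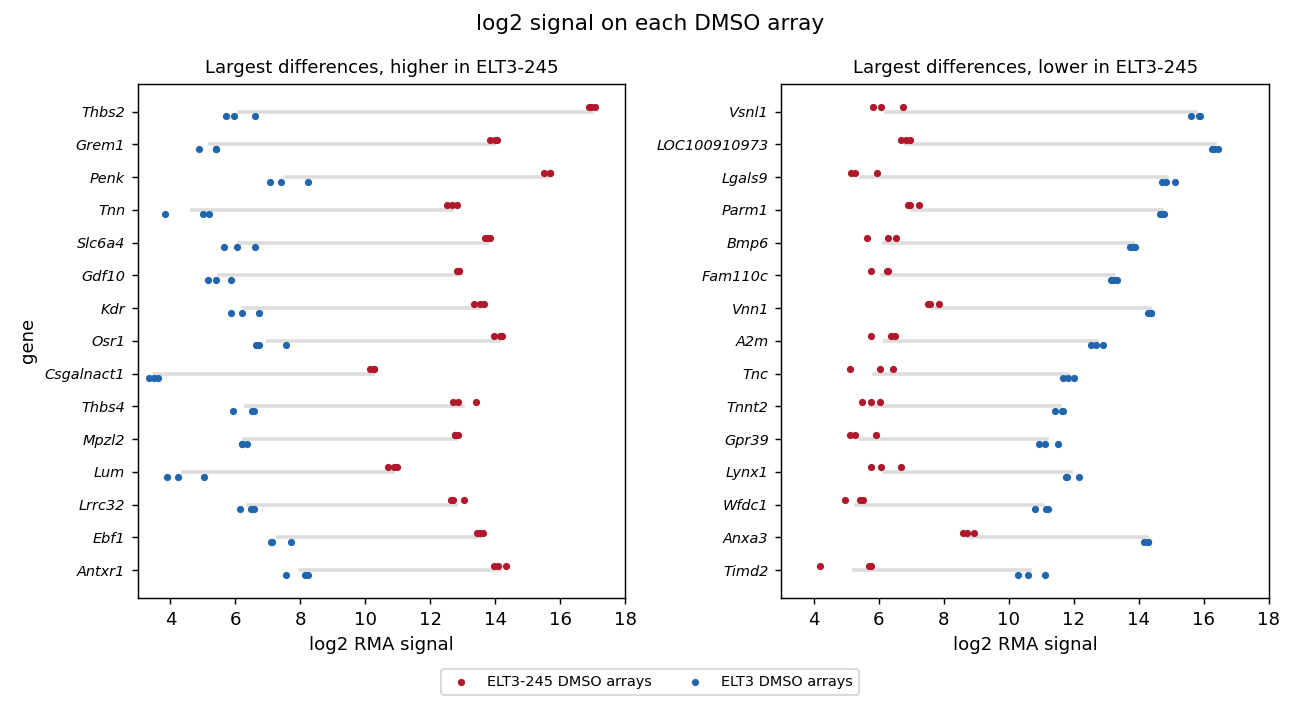
log2 RMA signal on each of the 6 DMSO arrays for the 15 genes with the largest increase (left) and the 15 with the largest decrease (right) in ELT3-245. Each point is 1 array, gray lines join the line means, and for every gene the 3 ELT3-245 arrays lie apart from the 3 ELT3 arrays.

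The genes with the 15 largest decreases had mean signals of 5.22 to 8.74 in ELT3-245 and of 10.66 to 16.33 in ELT3, and Anxa3 (8.74) and Vnn1 (7.64) were the brightest of them in ELT3-245. Vsnl1, which encodes the neuronal calcium sensor visinin-like 1, had signals of 5.83, 6.74 and 6.06 in ELT3-245 against 15.84, 15.87 and 15.60 in ELT3, a difference of -9.56 ± 0.20 (SE, adjusted p = 1.93e-11). Lgals9, a galectin that binds glycans on the cell surface, had 5.95, 5.14 and 5.26 in ELT3-245 against 14.70, 15.10 and 14.83 in ELT3 (difference -9.43 ± 0.23). Its neighbor Lgals5, a related rat galectin gene that was named after its values were seen, differed by -2.46, and probes for related sequences may share signal. The locus LOC100910973, which has no gene name, differed by -9.51.

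Signaling and muscle genes were also among the strongest decreases. Bmp6, a BMP ligand, had 5.62, 6.28 and 6.52 in ELT3-245 against 13.73, 13.83 and 13.88 in ELT3 (difference -7.67 ± 0.18). Tnnt2, the troponin T of cardiac muscle, had 6.02, 5.48 and 5.74 in ELT3-245 against 11.63, 11.66 and 11.42 in ELT3 (difference -5.82 ± 0.21). The mucin-like gene Parm1 (-7.68), Fam110c (-7.14), the pantetheinase gene Vnn1 (-6.69), the protease inhibitor gene A2m (-6.50), the tenascin gene Tnc (-5.97), the zinc receptor gene Gpr39 (-5.75), Lynx1 (-5.74), Wfdc1 (-5.74), the annexin gene Anxa3 (-5.50) and Timd2 (-5.44) made up the rest of the 15. Timd2 was the least even of them, with 5.77, 5.69 and 4.20 in ELT3-245 against 11.10, 10.28 and 10.59 in ELT3.

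Promoters of Osr1, Tnn, Lgals9 and Fam110c are shown as examples. They were picked from the leading genes without a set rule. Each held a match, so they do not stand for the other leading genes. The sequences are from RefSeq on GRCr8, 250 bases before to 50 bases after the annotated start, 5′ to 3′ on the strand of the gene. Capitals mark matches, on either strand, to CACCTG or CAGGTG (the E-box read by Snail and Slug), TGANTCA (AP-1) and GGAATG or CATTCC (TEAD).
Osr1 (chr6:38097401-38097700, plus strand): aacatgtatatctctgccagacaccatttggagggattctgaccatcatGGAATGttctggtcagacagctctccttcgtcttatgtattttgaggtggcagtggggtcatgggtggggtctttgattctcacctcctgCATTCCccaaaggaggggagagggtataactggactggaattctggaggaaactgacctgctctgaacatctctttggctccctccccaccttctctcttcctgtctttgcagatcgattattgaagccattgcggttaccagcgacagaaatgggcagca
Tnn (chr13:74919740-74920039, minus strand): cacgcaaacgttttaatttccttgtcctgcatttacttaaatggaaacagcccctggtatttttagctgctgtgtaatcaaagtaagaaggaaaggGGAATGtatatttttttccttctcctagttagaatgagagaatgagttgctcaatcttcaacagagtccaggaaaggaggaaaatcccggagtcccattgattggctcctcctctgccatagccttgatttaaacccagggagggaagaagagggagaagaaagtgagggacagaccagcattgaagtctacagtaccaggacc
Lgals9 (chr10:64428021-64428320, minus strand): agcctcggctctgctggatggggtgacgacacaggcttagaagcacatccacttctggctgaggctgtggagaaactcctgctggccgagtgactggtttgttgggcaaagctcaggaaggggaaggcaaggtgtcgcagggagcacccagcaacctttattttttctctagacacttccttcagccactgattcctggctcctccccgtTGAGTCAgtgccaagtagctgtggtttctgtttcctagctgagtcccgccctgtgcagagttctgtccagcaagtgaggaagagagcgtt
Fam110c (chr6:53365763-53366062, plus strand): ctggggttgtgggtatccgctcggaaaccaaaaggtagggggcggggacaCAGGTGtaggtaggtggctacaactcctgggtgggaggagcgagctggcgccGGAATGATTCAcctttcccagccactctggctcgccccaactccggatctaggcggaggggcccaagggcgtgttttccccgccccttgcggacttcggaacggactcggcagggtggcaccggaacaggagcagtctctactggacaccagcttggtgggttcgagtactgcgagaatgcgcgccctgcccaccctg

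In these windows Osr1 held the TEAD letters 201 and 111 bases before its start and Tnn 154 bases before. Lgals9 held an AP-1 match 40 bases before its start. Fam110c held an E-box at 200 bases, and its TEAD match at 148 bases ran into an AP-1 match at 144 bases, so the capitals there belong to both. A RefSeq promoter was found for 12435 of the 15037 genes. The E-box was in 14.9% of 985 promoters of genes called higher, in 19.4% of 1016 promoters of genes called lower and in 18.7% of all promoters. TEAD letters were in 12.4% of the promoters of genes called higher, 14.2% of those called lower and 12.2% of all. The AP-1 motif was in 6.7% of promoters of genes called higher, 7.68% of those called lower and 6.39% of all, and the CArG box of serum response factor in 1.32% of those called higher, 1.08% of those called lower and 1.29% of all. Among genes called at 16-fold or more, the TEAD letters were in 28.6% of 42 promoters of higher genes and 14.7% of 34 promoters of lower genes. In these sets the AP-1 motif was in 11.9% of promoters of higher and 11.8% of lower genes, the E-box in 9.52% of higher and 23.5% of lower genes, and the CArG box in 2.38% of higher and 2.94% of lower genes. The promoters of these sets held a median of 9.5 CG dinucleotides for higher and 11.5 for lower genes, against 16 for all promoters. Whether this bears on the motif shares was not tested. A match is a description of these letters and shows neither binding nor a cause.

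Chromosome 19 had the highest shares of calls in both directions. Of its 573 probe sets 11.2% were called higher and 19% lower, while the other numbered chromosomes and X ranged from 5.37% to 10.1% higher and from 5.13% to 10.8% lower. Named genes above the median signal (8066 in all) were placed in the order of the RefSeq annotation, without coordinates, since the genome build behind the array was not given in the sources used here. From Man2b1 to Dcaf15 lay 28 consecutive genes with a difference above 0.5, of which 27 were called higher. The next longest run of this kind anywhere in the genome had 6 genes. The run was found from these DMSO differences, so its counts are a description, and its genes other than the first and last were named after their values were seen.

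At the start of the run, neighboring genes differed in sign, but the gene before it was not called. This gene, Vps35, had 14.54, 14.56 and 14.46 in ELT3-245 against 14.91, 14.83 and 14.91 in ELT3 (difference -0.36). Man2b1, a lysosomal mannosidase and the first gene of the run, had 14.02, 14.10 and 13.78 in ELT3-245 against 11.92, 11.80 and 11.66 in ELT3 (difference 2.18 ± 0.13 SE). The lines overlapped on neither gene, which was also so for 36.8% of all probe sets.

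Inside the run lay enzymes, RNA processing proteins and transcription factors. Gcdh, a mitochondrial dehydrogenase of lysine breakdown, had 13.22, 13.10 and 13.16 in ELT3-245 against 9.67, 9.62 and 9.61 in ELT3 (difference 3.52 ± 0.12). Wdr83 (3.49), Junb, an AP-1 subunit (3.44), Fbxw9 (3.11), Rnaseh2a, the catalytic subunit of ribonuclease H2 (3.04), and Farsa, a subunit of phenylalanyl-tRNA synthetase (3.03), were the other genes with a difference above 3. Prdx2, a peroxiredoxin, had 16.40, 16.46 and 16.21 in ELT3-245 against 14.15, 14.04 and 14.10 in ELT3. The transcription factor gene Nfix had mean signals of 18.04 in ELT3-245 and 16.54 in ELT3. Calr, the chaperone calreticulin, was the 1 gene of the run that missed the fold threshold, at a difference of 0.55 and mean signals of 17.92 in ELT3-245 and 17.36 in ELT3.

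All differences above 2.5 lay between Wdr83 and Farsa, and the 10 genes from Nfix to Dcaf15 differed by less than 2. Dcaf15, the last gene of the run, had 8.62, 8.38 and 8.91 in ELT3-245 against 7.59, 7.79 and 8.20 in ELT3 (difference 0.77 ± 0.18), and the next gene, Rfx1, overlapped between the lines (difference 0.22). The 5 named genes inside the run that lay below the median signal were not called and differed by 0.08 to 0.32. The median over the 28 genes was 1.72, against 0.04 over the 7810 genes of other chromosomes in the same order.

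Beyond the run, more genes of chromosome 19 were lower than higher. Of the 167 genes from Rfx1 to Itgb1, 72 (43.1%) were called lower and 6 (3.59%) higher, with a median difference of -0.50. On the other chromosomes 11.9% of such genes were called lower and 11.5% higher. The 61 genes before the run had a median of 0.07, with 8 called higher and 5 lower. The lower region held Cdh3, Nqo1, Mvd and Wfdc1, which are also counted in the gene lists or leading genes, and the NADPH oxidase subunit gene Cyba. Itgb1, the β1 chain of most matrix-binding integrins and the last gene in this order, had mean signals of 15.26 in ELT3-245 and 16.43 in ELT3 (difference -1.16). Crispld2, at 4.63, was the largest increase there.

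The line differences on the rapamycin arrays had no part in finding the run. These arrays did enter the mean signal that chose the probe sets and genes placed in order, and the error of the common fit. On the rapamycin arrays 27 of the 28 genes were called higher in ELT3-245, with a median difference of 2.18. Of the 167 genes beyond the run 57 were called lower and 6 higher there, with a median of -0.38. DNA of the lines was not analysed here.

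**Figure D3:**
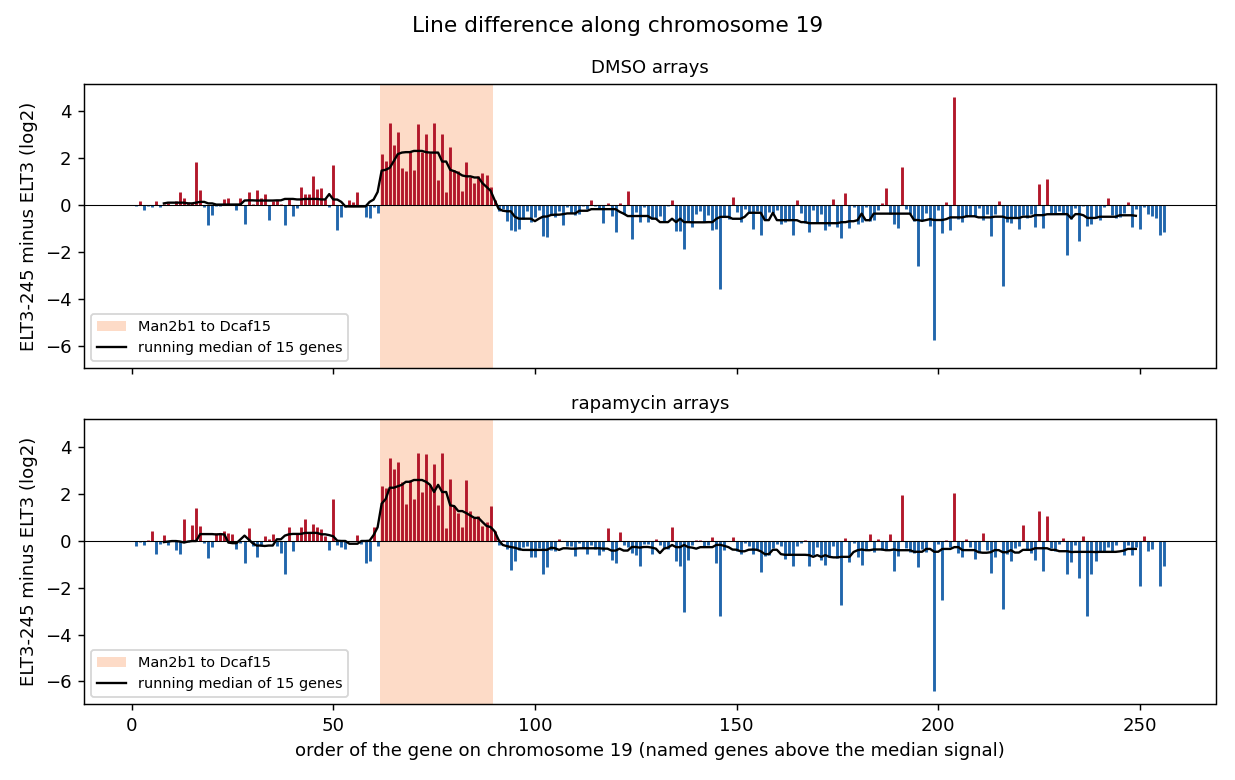
Difference between the lines (ELT3-245 minus ELT3, log2) for the 256 named genes of chromosome 19 above the median signal, in gene order, on the DMSO arrays (top) and the rapamycin arrays (bottom). Bars are genes, the black line is a running median of 15 genes, and the shaded run of 28 genes from Man2b1 to Dcaf15 rises above 0 in both panels while most genes to its right lie below 0.

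Other regions showed weaker shifts. The windows given here were the extremes among all overlapping windows of 40 neighboring genes. They were picked from these same DMSO differences, so their counts are a description. Outside chromosome 19, 11.5% of such genes were called higher and 11.9% lower. The highest medians there were 0.55 on chromosome 6 (Eml4 to Rbks, 15 or 37.5% called higher and 2 or 5% lower) and 0.45 on chromosome 20 (Eif4ebp2 to Cdk19, 17 or 42.5% higher and 7 or 17.5% lower). The lowest were -0.39 on chromosome 13 (Mapkapk2 to Camsap2, 4 or 10% higher and 14 or 35% lower) and -0.36 on chromosome 1 (C1h15orf40 to Tsku, 2 or 5% higher and 15 or 37.5% lower). Within chromosome 19 the window medians reached 1.41 and -0.69. In the rapamycin arrays the medians of the same windows were 0.40 on chromosome 6, 0.43 on chromosome 20, -0.25 on chromosome 13 and -0.19 on chromosome 1.

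A few of the strongest genes were direct neighbors. Among 14735 neighboring pairs of named genes, 22 had both members called in the same direction at 4-fold or more, and 4 of these lay in the chromosome 19 run. The only pairs with both members past 16-fold were Dcn with Lum (5.92 and 6.46) and Cd3e with Mpzl2 (5.95 and 6.54). Cd3e, a chain of the T cell receptor complex, had 10.96, 10.94 and 10.43 in ELT3-245 against 5.17, 5.03 and 4.27 in ELT3. The genes on either side of this pair, Cd3d (0.07) and Mpzl3 (0.26), were not called. Prelp with Fmod, Musk with Lpar1 and Etv1 with Scin were other pairs that were higher, and Sema3a with Sema3d and Timp4 with Pparg were pairs that were lower.

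Textbook gene lists described where the differences fell by function, against the background of 8.22% of genes called higher and 8.34% called lower. The share called ran from 62.5% of the matricellular and elastic fiber genes to 0 of 59 ribosomal protein genes. Lists were described by counts and medians, and no set test was made.

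**Figure D4:**
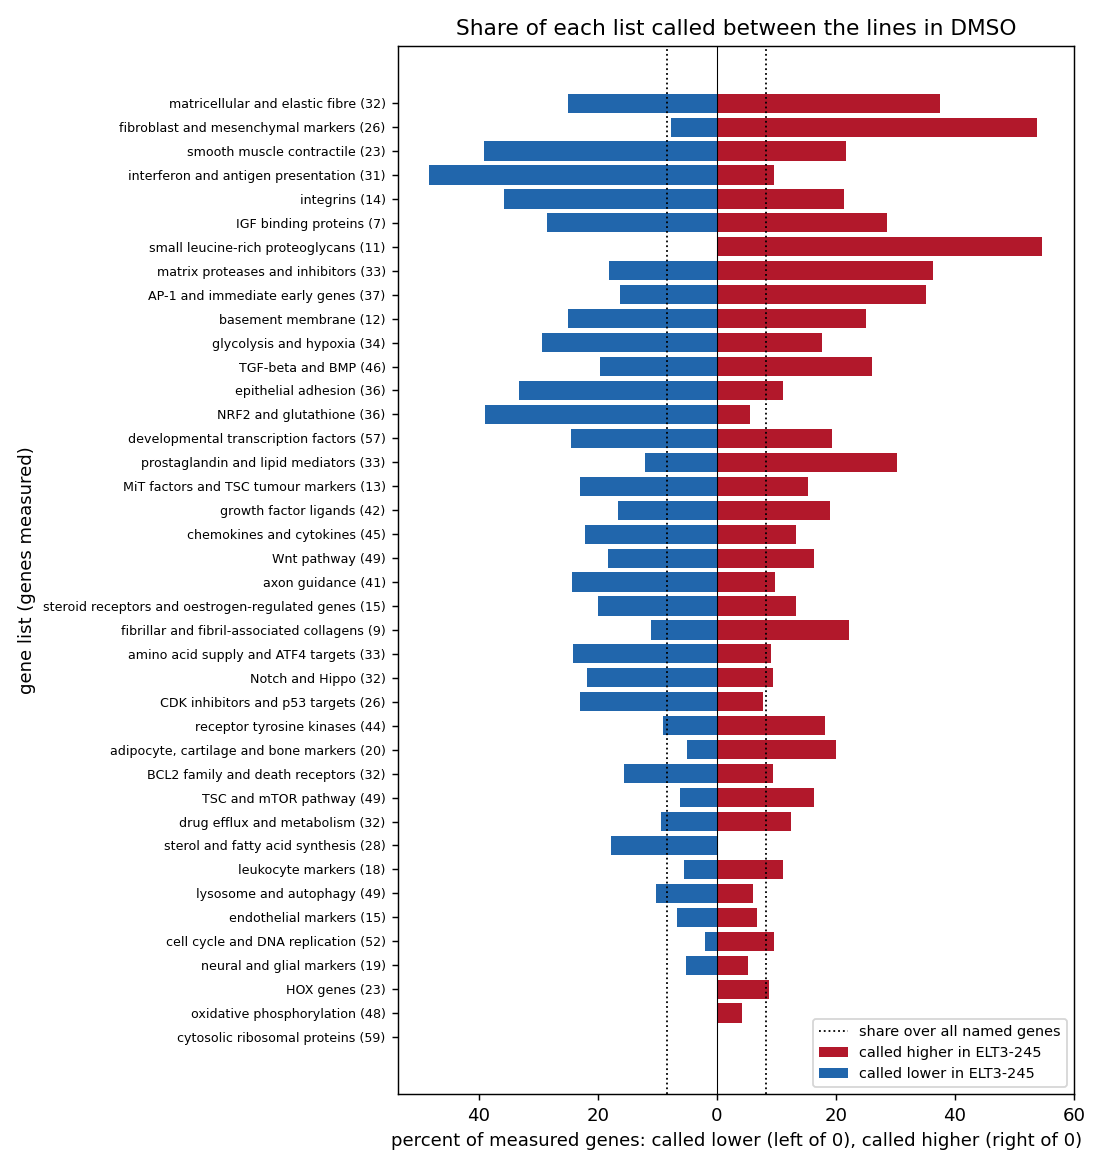
Percent of the measured genes of each of 40 lists called higher (right of 0) or lower (left of 0) in ELT3-245 in DMSO, with the number of measured genes in parentheses. Dotted lines mark the shares over all named genes, 8.22% higher and 8.34% lower, and the lists run from matricellular and elastic fiber genes at the top to ribosomal proteins at the bottom.

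Matrix genes differed in both directions, even within a family. Of the 11 small leucine-rich proteoglycans, which bind collagen fibrils, 6 were higher and none lower, with a median difference of 1.56. Fmod, which encodes fibromodulin, had 9.89, 9.84 and 9.97 in ELT3-245 against 5.39, 4.97 and 4.88 in ELT3, and Prelp had 14.39, 14.52 and 14.66 in ELT3-245 against 10.58, 11.46 and 11.01 in ELT3. Of 32 matricellular and elastic fiber genes, 12 were higher and 8 lower. Thbs2, Tnn and Thbs4 led the increases, and the related genes Tnc and Thbs1 were lower (Thbs1 -0.99).

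Elastic fiber genes of this list differed in both directions and were named after their values were seen. Mfap4 (5.45), the fibrillin gene Fbn1 (4.49), Fbln5 (3.46), Mfap2 (2.53) and the elastin gene Eln (1.95) were higher, and Mfap5 (-1.17) and Efemp2 (-0.75) were lower. Fbn2 (-0.49), Emilin1 (-0.28), Efemp1 (-0.80) and Fbln1 (0.02) were not called. Members of the CCN family of matricellular proteins were mostly lower, with Ccn4 at -3.03, Ccn1 at -1.3, Ccn2 at -0.94 and Ccn3 at -0.80 against Ccn5 at 0.86. Of 9 fibrillar and associated collagens, Col14a1 (3.17) and Col3a1 (1.78) were higher and Col8a1 (-2.90) lower, while Col1a1 missed the fold threshold at -0.49. Of 12 basement membrane genes 3 were higher and 3 lower, and the laminin genes Lamb3 (-3.19) and Lama5 (-2.31) and the agrin gene Agrn (-2.04) were the lower ones.

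Matrix proteases and their inhibitors had 12 genes higher and 6 lower of 33. Plau, the urokinase plasminogen activator, had 13.55, 13.56 and 13.62 in ELT3-245 against 9.17, 8.73 and 8.69 in ELT3 (difference 4.71 ± 0.16). Adamts9, a proteoglycan-cleaving protease, was higher by 5.10, the plasminogen activator inhibitor gene Serpinb2 by 4.16 and the collagen-degrading cathepsin gene Ctsk by 3.98. Plat, the tissue plasminogen activator, was lower (-1.83), so that the activators of plasmin moved in opposite directions. Of the tissue inhibitors of metalloproteinases, Timp4 (-3.94) and Timp3 (-1.97) were lower and Timp1 (0.18) and Timp2 (-0.17) were not called.

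Integrins, the receptors for matrix, had 3 genes higher and 5 lower of 14. Itga8, the α8 chain found in smooth muscle, had 5.94, 6.61 and 6.33 in ELT3-245 against 9.57, 9.52 and 9.60 in ELT3 (difference -3.27 ± 0.16). Itgb3 (-1.84) and Itga6 (-1.35) were lower too, and Itga7, a laminin receptor chain of muscle, was higher by 1.25.

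Smooth muscle contractile genes were divided, with 5 higher and 9 lower of 23. Tagln, the actin-binding protein transgelin, had 11.66, 11.77 and 11.63 in ELT3-245 against 14.76, 14.75 and 14.84 in ELT3 (difference -3.10 ± 0.09). The tropomyosin gene Tpm1 had 13.40, 13.36 and 13.40 in ELT3-245 against 15.92, 15.92 and 15.79 in ELT3. Acta2 was lower (-0.66), while the intermediate filament genes Synm (2.37) and Des (0.95) were higher. Lmod1, which nucleates actin filaments in muscle, was higher too (1.46), and the tropomyosin gene Tpm2 (0.05), the caldesmon gene Cald1 (0.51) and the smoothelin gene Smtn (0.13) were not called.

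Markers of fibroblasts and mesenchyme had 14 genes higher and 2 lower of 26, with a median difference of 0.63. Beside Lum and Dcn, the largest were Cd34, a sialomucin of progenitor and stromal cells, with 12.68, 12.51 and 12.29 in ELT3-245 against 6.58, 6.76 and 6.98 in ELT3, and the protease gene Fap, with 9.70, 9.67 and 10.24 in ELT3-245 against 4.80, 5.37 and 4.08 in ELT3. The 2 lower genes were Cdh2 (-1.42) and Mfap5 (-1.17). Vim, the intermediate filament gene of mesenchymal cells, was bright in both lines and not called, at a mean signal of 17.69 in ELT3-245. Col1a1, Col1a2, Fn1, Pdgfrb, Postn, Cdh11 and Loxl2 were not called either. Epithelial adhesion genes had 4 higher and 12 lower of 36.

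Ligands and antagonists of the TGF-β superfamily included some of the largest differences, with 12 genes higher and 9 lower of 46. Of the antagonists, which were named after their values were seen apart from Grem1, Grem1 and Fst (3.27) were higher and Fstl3 (-1.5) lower, and Nog (-0.07), Chrd (0.14) and the pseudoreceptor gene Bambi (-0.67) were not called. Of the ligands, Bmp6, Tgfb3 (-3.47), Inhba (-3.31), Tgfb2 (-2.04) and Tgfb1 (-1.03) were lower, and Gdf10 and Inhbb (1.02) were higher. Tgfb3 had 9.42, 9.20 and 9.18 in ELT3-245 against 12.74, 12.74 and 12.75 in ELT3. The co-receptor genes Eng (2.01) and Tgfbr3 (1.74) were higher, and of the transducers of these signals Smad9 (1.51) was higher and Smad1 to Smad5 were not called. The inhibitory Smad6 was lower (-0.75).

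Growth factor ligands had 8 genes higher and 7 lower of 42. Vegfd, a ligand of lymphatic growth, had 13.40, 13.20 and 13.14 in ELT3-245 against 7.85, 8.47 and 7.61 in ELT3 (difference 5.27 ± 0.21). Vegfc (-2.11) and Vegfa (-0.73), of the same family, were lower. Pdgfd (4.60), the neurotrophin gene Bdnf (3.74) and Igf1 (2.81) were higher, and Pdgfa was lower (-1.01).

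Receptor tyrosine kinases had 8 genes higher and 4 lower of 44. Beside Kdr, the muscle-specific kinase gene Musk had 11.51, 11.40 and 11.19 in ELT3-245 against 7.03, 6.7 and 7.01 in ELT3. Pdgfra had 12.62, 12.61 and 12.79 in ELT3-245 against 8.80, 8.95 and 8.77 in ELT3, while the mean signals of Pdgfrb were 13.36 in ELT3-245 and 13.30 in ELT3. Ror2, a receptor for Wnt ligands, was higher by 3.19. Of the 7 IGF binding protein genes, Igfbp5 (2.79) and Igfbp6 (2.12) were higher, and Igfbp4 (-2.28) and Igfbp2 (-1.41) lower.

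In guidance and patterning pathways members differed in both directions. Axon guidance genes had 4 higher and 10 lower of 41, and the secreted semaphorin gene Sema3d had 9.86, 9.85 and 10.01 in ELT3-245 against 15.02, 15.13 and 15.16 in ELT3 (difference -5.19 ± 0.10). Efna5 (-2.70) was lower, and Sema6b (2.73) and Rgma, a BMP co-receptor and guidance molecule (2.68), were higher. Wnt pathway genes had 8 higher and 9 lower of 49, with the antagonist gene Sfrp2 (4.88) and the co-receptor gene Lrp5 (4.05) up and the agonist gene Rspo1 (-2.70) down. In the Notch and Hippo list 3 were higher and 7 lower of 32, and the Notch effector genes Hey2 (3.52) and Hes1 (-1.43) differed in opposite directions.

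Developmental transcription factors had 11 genes higher and 14 lower of 57. After Osr1 came Tbx18, a T-box factor of ureteric and vascular mesenchyme, with 8.47, 8.72 and 8.38 in ELT3-245 against 5.26, 5.61 and 5.41 in ELT3, and Etv1 (2.59). Gata6, a factor of the smooth muscle lineage, had 8.82, 8.89 and 8.21 in ELT3-245 against 11.51, 11.37 and 11.49 in ELT3. HOX genes, which record position along the body axis, had 2 of 23 called (8.7%, against 16.6% of all named genes), Hoxa13 (1.18) and Hoxa7 (1.07), and the call of Hoxa7 was lost without ELT3-245 replicate 2 (0.97, adjusted p = 0.0596) or ELT3 replicate 1 (0.94, adjusted p = 0.0672). Among 15 steroid receptor and estrogen-regulated genes 2 were higher and 3 lower, and the progesterone receptor gene Pgr had 9.64, 9.18 and 9.75 in ELT3-245 against 10.83, 10.75 and 11.03 in ELT3. Esr1, the estrogen receptor, was not called, at means of 7.0 in ELT3-245 and 6.67 in ELT3.

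Prostaglandin and lipid mediator genes had 10 higher and 4 lower of 33. Ptgs2, the inducible cyclooxygenase, had 10.15, 10.26 and 10.01 in ELT3-245 against 14.25, 14.35 and 14.40 in ELT3 (difference -4.20 ± 0.11). Ptges, which makes prostaglandin E2 from the cyclooxygenase product, had 9.73, 10.76 and 10.11 in ELT3-245 against 6.13, 6.17 and 5.91 in ELT3 (difference 4.13 ± 0.25). Hpgd, which inactivates prostaglandins, was higher by 3.82, so that enzymes of 1 pathway were changed in opposite directions. The receptor genes Ptger2 (1.55), Ptger4 (1.0) and Ptgir (1.33) were higher and were named after their values were seen.

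Interferon and antigen presentation genes had 3 higher and 15 lower of 31, with a median difference of -0.50. Oasl, an antiviral interferon-stimulated gene, had 7.81, 8.0 and 7.32 in ELT3-245 against 11.19, 11.34 and 11.24 in ELT3 (difference -3.55 ± 0.20). Oas1a (-2.81), Mx1 (-2.75) and Ifit3 (-2.63) followed. Irf9 (-1.94) and Stat2 (-1.85), subunits of the transcription factor that acts on these genes, were lower too and were named after their values were seen, whereas Ifit2 (1.56), Gbp5 (1.35) and B2m (0.63) were higher. Chemokines and cytokines had 6 higher and 10 lower of 45, with Ccl2 at -2.55 and Cxcl10 at -2.27.

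Of 49 genes of the TSC and mTOR pathway 8 were higher and 3 lower (22.4% called). Prr5, a subunit of mTORC2, had 8.59, 9.01 and 8.55 in ELT3-245 against 6.61, 6.7 and 6.59 in ELT3 (difference 2.08 ± 0.17). Pik3r1, a regulatory subunit of PI3 kinase, was higher by 1.74 and the catalytic subunit gene Pik3cd lower (-1.85). Ddit4, an inhibitor of mTORC1, was higher by 1.66. Rheb, the activator of mTORC1 that tuberin restrains, had 15.39, 15.50 and 15.45 in ELT3-245 against 16.45, 16.41 and 16.40 in ELT3, a difference of -0.98 ± 0.09 (SE, adjusted p = 4.21e-06), and was named after its value was seen. Among transcription factors of the MiT family and markers of TSC tumors, 2 genes were higher and 3 lower of 13. Tfec had 5.11, 5.35 and 5.75 in ELT3-245 against 9.69, 9.92 and 9.83 in ELT3. Of the other family members Tfeb was lower (-0.61), and Mitf and Tfe3 were not called.

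Of 34 glycolysis and hypoxia genes 6 were higher and 10 lower. Car9, a hypoxia-induced carbonic anhydrase, had 10.51, 10.64 and 10.72 in ELT3-245 against 14.39, 14.46 and 14.32 in ELT3, while Car12, of the same enzyme family, had 8.81, 8.74 and 8.34 in ELT3-245 against 4.42, 4.81 and 4.74 in ELT3. Egln3 (-3.14) and the glucose transporter gene Slc2a3 (-2.68) were lower, and Hif1a was not called. Among genes of glycolytic enzymes and their regulators, Hk2 (-1.47), Pfkfb3 (-0.88) and Eno2 (-0.73) were lower, Pfkfb4 (1.52) and Hk1 (0.65) were higher, and Gapdh, Pgk1, Eno1 and Ldha were not called.

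Antioxidant genes had mostly lower calls. Of 36 genes of the NRF2 and glutathione list 2 were higher and 14 lower, with a median difference of -0.45. Prdx6 had 14.51, 14.64 and 14.35 in ELT3-245 against 16.31, 16.28 and 16.25 in ELT3, and Gsta4 (-2.36) and Nqo1 (-1.28) were lower, whereas Gpx3, a secreted glutathione peroxidase, was higher by 2.61. Nfe2l2, which encodes NRF2, was not called. Nqo1 lies in the lower region of chromosome 19, and the part of that region in the list was not tested.

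Amino acid supply and ATF4 target genes had 3 higher and 8 lower of 33. Glul, the glutamine synthetase, had 16.33, 16.25 and 16.33 in ELT3-245 against 13.48, 13.68 and 13.80 in ELT3, and the glutamine carrier gene Slc1a5 was lower (-1.11). Of 28 genes of sterol and fatty acid synthesis 5 were called (17.9%, against 16.6% of all named genes). All 5 were lower, none by more than 2-fold, with Scd at -0.97 and Sc5d at -0.94. Of 32 genes of drug efflux and metabolism 4 were higher and 3 lower, with Cyp1b1 (4.19) and Aldh1l2 (4.0) up. Abcb1a and Abcb1b, rat genes for the drug pump P-glycoprotein, differed by -1.62 and 1.26, and their similar sequences may share probe signal.

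Lists of basic cell machinery held few calls. None of 59 cytosolic ribosomal protein genes was called by limma at these thresholds, 2 had an unadjusted p under 0.05, and 1 was called higher without ELT3 replicate 1. Rps29, the brightest of them, had 17.93, 18.05 and 17.87 in ELT3-245 against 17.81, 17.94 and 17.94 in ELT3. Of 48 oxidative phosphorylation genes 2 were called, Ndufa5 (0.90) and Ndufa1 (0.67), both higher, and the call of Ndufa1 was lost without ELT3-245 replicate 1 (0.58). Cell cycle and replication genes had 5 higher and 1 lower of 52 (11.5% called), with Nusap1 at 1.09, Ccnd2 at 1.02 and Ccne1 at -0.81. Lysosome and autophagy genes had 3 higher and 5 lower of 49 (16.3%), near the background of 16.6%, and Ctsh (2.65) was the largest of them.

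CDK inhibitor and p53 target genes had 2 higher and 6 lower of 26, among them Gadd45g (-1.52), Ccng1 (-1.09) and Tp53inp1 (1.3). In the list of BCL2 family and death receptor genes, 3 were higher and 5 lower of 32. The anti-apoptotic gene Bcl2 had 5.45, 6.23 and 5.44 in ELT3-245 against 7.41, 7.45 and 8.15 in ELT3, and Bcl2l11, the pro-apoptotic BIM, had 7.0, 7.67 and 6.86 in ELT3-245 against 5.29, 5.61 and 5.32 in ELT3. The caspase genes Casp1 (2.82) and Casp6 (2.49) were higher. AP-1 and immediate early genes had 13 higher and 6 lower of 37, and Junb and Ier2 of this list lie in the chromosome 19 run.

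Most markers of other cell types lay below the array median in both lines. The share called was 16.7% for leukocyte, 13.3% for endothelial and 10.5% for neural and glial markers. It was 25% for adipocyte, cartilage and bone markers, against 16.6% of all named genes. Of 18 leukocyte markers Cd3e and Cd68 (1.59) were higher and Cd14 (-0.73) lower, and 4 markers in ELT3-245 and 3 in ELT3 exceeded the array median. Of 15 endothelial markers Kdr was higher and Tek (-1.57) lower, and 2 in ELT3-245 and 1 in ELT3 exceeded it. Pecam1, Cdh5 and the pan-leukocyte gene Ptprc were not called. Of 20 adipocyte, cartilage and bone markers 4 were higher, led by the lipase gene Lpl with 11.76, 11.51 and 11.95 in ELT3-245 against 7.98, 7.64 and 7.81 in ELT3, and Pparg was lower (-2.74). Of 19 neural and glial markers Nes (1.5) was higher and Uchl1 (-1.5) lower.

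The line difference was then read from the 6 rapamycin arrays, whose values do not enter the DMSO differences. Of the 3445 probe sets called in DMSO, 3212 (93.2%) had the same sign there, against 64.7% of all probe sets. Of the DMSO calls, 2223 (64.5%) were also called in the same direction in rapamycin, which is 57.1% of the 3890 rapamycin calls (16.8% of all probe sets), and 15 were called in the opposite direction. Thbs2 differed by 10.56 in rapamycin, Grem1 by 9.92, Vsnl1 by -8.74 and Lgals9 by -9.25. The size of the line difference depended on treatment (limma interaction, adjusted p under 0.05) for 527 of the DMSO calls (15.3%), against 4.35% of all probe sets. The DMSO arrays enter both the call and the interaction, so this share is no independent result. Both line contrasts also took their error from 1 common fit.

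**Figure D5:**
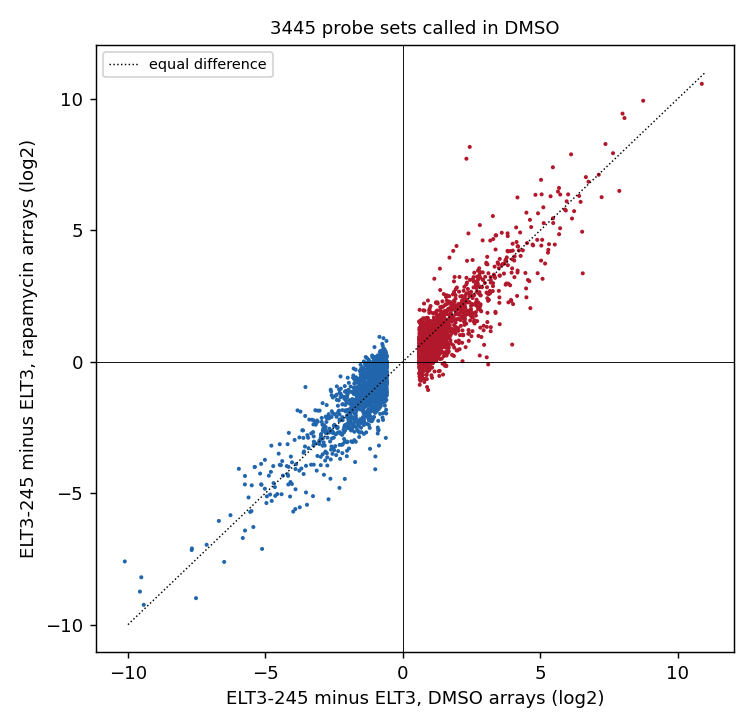
Difference between the lines (ELT3-245 minus ELT3, log2) on the rapamycin arrays against that on the DMSO arrays for the 3445 probe sets called in DMSO, 1 point per probe set. Points lie along the dotted line of equal differences, and 3212 of them have the same sign on both axes.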

How the data were processed

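RNA of 12 samples was hybridized to rat Clariom S arrays. The authors deposited log2 signals made with RMA, which corrects background, normalizes arrays to each other and summarizes probe sets (version and options not given in the sources used here). No per-sample column was left unused (0). Symbols came from the platform table: 15049 of 23188 probe sets had 1 symbol and 8139 stayed unnamed but were tested. For 10 symbols with several probe sets the brightest was used.

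Group means of all 4 groups were fitted with limma 3.58.1 in R 4.3.3 (8 residual and 3.91 prior degrees of freedom), and the line contrasts and their interaction with treatment were taken, with Benjamini-Hochberg adjustment over all probe sets. Precision is limited by 3 arrays per group. Exact permutation of 3 against 3 arrays allows no two-sided p under 0.1 and was not used. Named were the 15 largest increases and decreases, up to 4 called genes per list, and Tsc2, Tsc1, Mtor and Fkbp1a. Others named were chosen after their values were seen. The lists, rules and tests were chosen with earlier results of these data known. Gene order and promoters were from RefSeq (GRCr8), and 99.5% of 14825 placed genes lay on the chromosome given in the probe set name. The alternatives are given in the closing section. Tables and plots used Python 3.11.15, pandas 2.3.3 and Matplotlib 3.10.9.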

Additional observations from a re-analysis of the deposited data

Results flagged for a closer look

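For 45 of the named genes the difference between ELT3-245 and ELT3 was not the same after rapamycin as in DMSO (limma interaction, adjusted p under 0.05 over all probe sets, 4.35% of which passed). Values in parentheses are the line difference in rapamycin minus the line difference in DMSO, on the log2 scale. The DMSO values chose most of these genes and enter both the line difference in DMSO and the value in parentheses.

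The line difference was smaller in rapamycin for Mpzl2 (-3.18), Prelp (-1.27), Musk (-1.08), Pdgfra (-0.87), Pdgfd (-1.54), Igf1 (-1.52), Igfbp5 (-2.56), Cxcl6 (-1.52), Ddit4 (-1.28), Car12 (-3.33), Glul (-0.77), Casp6 (-1.52), Gpx3 (-1.16), Aldh1l2 (-1.82), Cd68 (-1.36), Lpl (-1.59) and Sox5 (-1.27), all higher in ELT3-245 in DMSO. It was smaller, too, for LOC100910973 (1.31), Tnc (1.89), Anxa3 (0.79), Tagln (0.81), Cxcl12 (0.99), Tgfb3 (0.68), Ccl2 (1.19), Cxcl10 (1.71), Oasl (2.58), Ifit3 (1.56), Car9 (0.88), Abcb1a (0.94), Sema3d (0.94) and Rspo1 (0.64), all lower in ELT3-245 in DMSO. The carbonic anhydrase gene Car12 differed between the lines by 0.65 in rapamycin and by 3.97 in DMSO, and Igfbp5 by 0.23 in rapamycin and by 2.79 in DMSO. Oasl, the interferon-stimulated gene, differed by -0.97 in rapamycin and by -3.55 in DMSO.

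The line difference was larger in rapamycin for Col14a1 (1.43), Fmod (1.52), Itga8 (-1.84), Serpinb2 (2.08), Ocln (-2.0), Igfbp4 (-1.41), Egln3 (-1.01), Vldlr (-0.93) and Aldh3a1 (0.83). Serpinb2 differed by 6.24 in rapamycin and by 4.16 in DMSO, and Itga8 by -5.12 in rapamycin and by -3.27 in DMSO. The line difference changed sign in rapamycin for Itga6 (1.53), Chac1 (1.32), Slc1a5 (1.28), Tp53inp1 (-1.67) and Ankrd1 (-1.52). They were called in DMSO only, and their differences in rapamycin were between -0.37 and 0.17 (limma, adjusted p = 0.073 to 0.742). Of the genes with a smaller difference in rapamycin, Igfbp5, Cxcl6, Ddit4, Cd68, Sox5 and Cxcl10 were not called there either.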

How the results depend on the processing

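The counts of 3445 calls, 1693 higher and 1752 lower in ELT3-245, fell with a stricter rule. limma's treat against 1.5-fold gave 1471 calls (743 higher, 728 lower), a per-gene unequal-variance test on the 6 DMSO arrays with the same adjustment 1700 (827 higher, 873 lower) and a 2-fold threshold 1703 (857 higher, 846 lower). With no fold threshold 2575 were higher. Scaling moved the balance of directions: median centring gave 1545 higher and 1900 lower, and quantile normalization 1637 higher and 1816 lower. Leaving out 1 array at a time gave 3219 to 3590 calls, 1549 to 1794 higher and 1659 to 1796 lower. Under the 19 settings no probe set was called in the opposite direction. The median of the chromosome 19 run, for which the settings were added after the data were seen, stayed between 1.65 and 1.75. Its genes called higher numbered 27 in the main fit, 22 under treat, 20 under the unequal-variance test and 28 under quantile normalization. Of 158 called named genes, 127 kept their call under every setting, and 24, 15 and 13 lost it under the unequal-variance test, treat and the 2-fold threshold. Without 1 array, Ndufa1 and Hoxa7 lost theirs. Of the uncalled genes, leaving out 1 array moved Tsc2 between -0.08 and 0.25, Mtor between -0.02 and 0.25 and Rps29 between -0.00082 and 0.09, without a call. Tsc2 turned to -0.08 without ELT3-245 replicate 1, to -0.06 without ELT3-245 replicate 2 and to -0.00017 without ELT3 replicate 1, Rps29 to -0.00082 without ELT3-245 replicate 2, and Mtor to -0.02 without ELT3 replicate 2.

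With the replicate number as a replicate block, 3434 probe sets were called (1692 higher, 1742 lower) and no named gene lost its call. Deviations of same-numbered arrays correlated at -0.004, 0.029 and -0.081, so no deviation shared by replicate number was seen. The groups were small and the arrays had been normalized to each other. These values therefore cannot decide whether same-numbered plates were cultured or handled together. Signals near background limit what the arrays can show for dim genes: without probe sets below the median signal, 2671 were called.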
